A study of Drosophila melanogaster with 3 samples.

Results

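The autophagy and lysosome genes described here are 33 named Drosophila melanogaster genes, out of 13945 protein-coding genes on 6 chromosome arms. They were taken by name from a written list, drawn up with earlier results of these data known, and 32 were matched by symbol and 1 (Vps34, listed as Pi3K59F) by synonym. They were read for binding of a GFP-tagged transcription factor, measured by chromatin immunoprecipitation with an anti-GFP antibody and sequencing (ChIP-seq). The material was whole embryos of both sexes collected at 0 to 24 h from 1 transgenic line, so many cell types were mixed, and a region found in few cells cannot be told apart from a weak one. The labels differ on which protein carried the tag. The strain, source and antibody fields give CG18619, the gene of REPTOR-BP, and the remaining text gives REPTOR with GFP at its C-terminus. The 3 biological replicates, numbered 1, 2 and 4 and each from its own biosample, formed 1 group, and no untagged, treated or starved group was analysed here.

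Autophagy encloses cytoplasm in a double membrane, the autophagosome, which then fuses with the lysosome, where hydrolases degrade the content. Its steps use separate machines: the Atg1 kinase complex starts the process, lipid transfer and membrane proteins grow the sheet, a lipid kinase complex marks it, and a pair of ubiquitin-like conjugation systems attach Atg8 to it. In the fly, autophagy is induced by starvation and by low activity of the kinase complex TORC1. REPTOR and REPTOR-BP are bZIP transcription factors, and REPTOR becomes active when TORC1 is inhibited.

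The DNA at some of the promoter peaks is shown first, because the results turn on where the summits lay. Atg17, Atg2, Atg4b and Uvrag had the strongest promoter peak of initiation, membrane growth, conjugation and the lipid kinase step. Vps15 is shown as a peak not shared with a neighbour. Each stretch runs from 50 bases before to 50 bases after the summit, the highest point of a peak, and is read 5′ to 3′ on the strand of the named gene, from the RefSeq Release 6 sequence (dm6 build). The windows are Atg17 at chr3R:5669467-5669567 (plus strand), Atg2 at chr3L:2774015-2774115 (plus strand), Atg4b at chr3R:15357099-15357199 (minus strand), Uvrag at chr2L:13286615-13286715 (plus strand) and Vps15 at chr3R:9245961-9246061 (minus strand). Capitals mark TATAAA read on either strand, the only one of the 8 searched motifs in these 5 windows.
Atg17: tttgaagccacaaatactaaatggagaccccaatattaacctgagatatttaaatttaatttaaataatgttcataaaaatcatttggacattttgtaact
Atg2: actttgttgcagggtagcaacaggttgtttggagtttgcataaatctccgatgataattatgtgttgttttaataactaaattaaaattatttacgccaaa
Atg4b: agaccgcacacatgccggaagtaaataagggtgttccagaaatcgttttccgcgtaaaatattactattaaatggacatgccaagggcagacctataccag
Uvrag: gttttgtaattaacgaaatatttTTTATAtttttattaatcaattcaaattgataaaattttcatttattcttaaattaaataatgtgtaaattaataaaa
Vps15: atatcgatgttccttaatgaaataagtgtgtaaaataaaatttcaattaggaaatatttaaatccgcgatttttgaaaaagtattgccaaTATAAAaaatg
The whole space between the start of car and that of its neighbour Grip84, chrX:19565765-19566018 on the plus strand, is given as an example of a peak shared by a head-to-head pair. Capitals again mark TATAAA on either strand.
car and Grip84: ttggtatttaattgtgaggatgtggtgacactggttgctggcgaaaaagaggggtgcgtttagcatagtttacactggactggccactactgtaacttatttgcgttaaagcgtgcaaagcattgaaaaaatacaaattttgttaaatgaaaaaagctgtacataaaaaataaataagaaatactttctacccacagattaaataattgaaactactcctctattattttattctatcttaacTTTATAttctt
The last stretches of 61 bases hold the DNA replication-related element TATCGATA, in capitals, between a member and its neighbour. They are chr3R:5669626-5669686 for Atg17 and chr3L:18748613-18748673 for Atg3, both on the plus strand.
Atg17 and Xe7: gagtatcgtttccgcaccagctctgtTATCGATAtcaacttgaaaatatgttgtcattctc
Atg3 and Nufip: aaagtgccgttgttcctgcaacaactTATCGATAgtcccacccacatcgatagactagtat

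A promoter peak is a summit of the authors' optimal list, which holds 5208 peaks, within 500 bp of an annotated start site of the gene. Each peak carries the authors' signal value, with no error of its own, on the scale of its list. The optimal list was the first 5208 regions of the pooled list of 30000, down to a signal of 148.2. Each replicate list also held 30000 regions, peaks and background together, so the strongest 5208 of each were taken, which ended at signals of 50.2, 52.2 and 56.0 in replicates 1, 2 and 4. The lists give no read counts, so the depth of each replicate is unknown.

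Promoter peaks were found at 12 of the 33 genes (36.4%), where 20.6% of all coding genes had one. The 12 included Atg13 and Atg17 of initiation, Atg2, Atg9 and Atg18a of membrane growth, and Vps15 and Uvrag of the lipid kinase step. The rest were Atg3, Atg4b and Atg7 of conjugation, and CtsL1 and car of the lysosome. With peaks anywhere in the gene body added, the count was 14 of 33 (42.4%, against 25.6% of all coding genes), through Atg1 and Atg5. The genes were listed with earlier results of these data known, so these counts were given no test.

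The replicates placed promoter regions at similar numbers of these genes. Among the strongest regions of replicate 1, 11 of 33 genes had one (33.3%, against 20% of all coding genes). Replicate 2 gave 13 (39.4%, against 21.2%), and replicate 4 also gave 13 (39.4%, against 20.2%). The mean share was 37.4% ± 3.50 (SD, n = 3) for these genes and 20.5% ± 0.643 (SD, n = 3) for all coding genes. Each SD is over 3 replicates read at the same genes, and does not measure the spread over other lists of 33 genes.

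Fewer genes held in every replicate. A promoter region stood among the strongest of all 3 replicates at 8 genes (24.2%, against 14% of all coding genes): Atg17, Atg2, Atg9, Atg18a, Vps15, Atg4b, Atg7 and CtsL1. For 7 of them (21.2%, against 12.5%) the optimal summit itself had such a region within 100 bp in each replicate. CtsL1 was the exception, since its regions in the replicates did not all lie at the optimal summit.

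**Figure D1:**
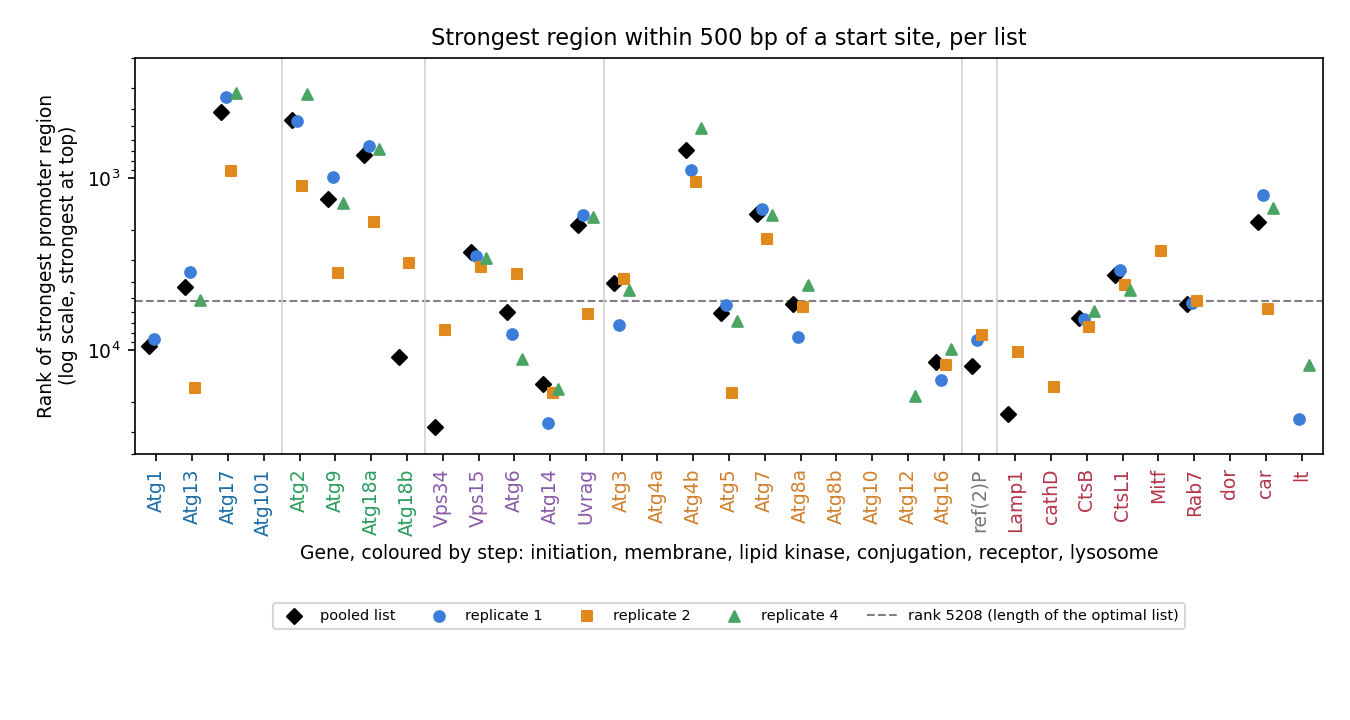
Rank of the strongest region within 500 bp of a start site of each of the 33 genes (vertical axis, logarithmic, strongest at the top) in the pooled list and in replicates 1, 2 and 4, with genes coloured by step and no mark where a list held no region. The dashed line is rank 5208, the length of the optimal list; Atg17, Atg2, Atg18a and Atg4b stand highest, and Atg8a and Rab7 lie just below the line.

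In the initiation complex, Atg17 had the strongest promoter peak of all 33 genes. Atg17 encodes the scaffold of the Atg1 kinase complex. Its peak at chr3R:5669300-5669673, in the window printed above, had an optimal signal of 736 (rank 415) and its summit at -196 bp from the start, where negative distances are upstream. The signal there was 268, 132 and 352 in replicates 1, 2 and 4 (ranks 338, 916 and 320). All 3 replicates placed the region within their first 1000, and replicate 2 placed it lowest. Atg13, the regulatory subunit that TORC1 phosphorylates, had the weakest peak of the 12, with a signal of 172 (rank 4333) at -388 bp. No region of replicate 1 lay within 100 bp of that summit, and the signal was 25.5 in replicate 2 (rank 16561) and 57.1 in replicate 4 (rank 5098). The Atg13 peak was thus among the strongest regions of replicate 4 only, although replicate 1 had a region of signal 67.5 (rank 3509) nearer the start, at -156 bp.

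Atg1, the kinase itself, had no promoter peak, but 3 peaks inside its first 12 kb. Its best promoter region in the pooled list had a signal of 92.1 (rank 9492). The strongest of the inner peaks, at chr3L:12803652-12804107, had a signal of 442 (rank 1066) and lay in an intron 1236 bp into the gene. The signal there was 123, 111 and 203 in replicates 1, 2 and 4 (ranks 1433, 1297 and 892), so each replicate held it among its strongest regions. A weaker peak of signal 187 (rank 3884) lay close by, 1035 bp into the gene, and in no replicate was its region among the strongest (ranks 7876, 8216 and 7031). The last of the 3, with a signal of 305 (rank 1913), lay 11857 bp into the gene. That position is also in an intron of CG42709, a gene nested inside Atg1 on the other strand, so the peak cannot be given to either gene. Atg101, the remaining subunit, had no promoter region in any list.

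Membrane growth was the step with the largest share of genes with a promoter peak, 3 of 4, beside 20.6% of all coding genes. Atg2, which encodes a lipid transfer protein that feeds the growing membrane, had 2 promoter peaks. The stronger, at chr3L:2773940-2774185, had a signal of 693 (rank 460) at -273 bp, and 227, 119 and 348 in replicates 1, 2 and 4 (ranks 469, 1120 and 327). The other, at chr3L:2774142-2774358, had a signal of 579.8 (rank 637) at -74 bp, and 163, 102 and 278 in the replicates (ranks 855, 1503 and 503). Both summits lay between Atg2 and CG12093, one nearer to each start, and both were matched in every replicate with replicate 4 highest and replicate 2 lowest. Atg18a encodes a protein that binds phosphatidylinositol 3-phosphate on the membrane. Its peak at chr3L:8186809-8186959 had a signal of 533 (rank 740), and 188, 91.8 and 106 in the replicates (ranks 656, 1805 and 2424). It was the only one of the 14 promoter summits downstream of the start, at 44 bp in the 5′ untranslated region, while the strongest promoter region of replicate 4 lay at -78 bp with a signal of 241 (rank 679). Atg9, the transmembrane protein of the pathway, had a peak at chr2R:16294096-16294551 with a signal of 389 (rank 1318) at -76 bp. Its signal was 151, 64.4 and 155 in the replicates (ranks 985, 3587 and 1401), again lowest in rank in replicate 2.

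In the lipid kinase step, peaks stood at 2 of 5 genes, neither of which encodes the catalytic subunit. Vps15, the regulatory kinase-like subunit, had a peak at chr3R:9245783-9246238 with a signal of 245 (rank 2706) at -142 bp. Its signal was 78.4, 67.6 and 92.1 in replicates 1, 2 and 4 (ranks 2829, 3288 and 2930), the closest agreement of ranks among the promoter peaks matched in all 3. Uvrag, a subunit that acts in endosome and autophagosome maturation, had a peak at chr2L:13286437-13286892 with a signal of 310.4 (rank 1866) at -112 bp. Its signal was 112, 47.3 and 135 (ranks 1633, 6149 and 1691), so the region fell outside the strongest of replicate 2. Vps34, the catalytic subunit, had only a weak pooled region (signal 41.0, rank 28048). Atg14, the subunit that directs the complex to autophagosomes, was also weak (62.3, rank 15696). Atg6, the Beclin homologue, reached a pooled signal of 133 (rank 5990) and stood among the strongest regions of replicate 2 only (64.2, rank 3607).

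Conjugation is the step with the most genes, 10, of which 3 had a promoter peak. Atg7 encodes the activating enzyme that both conjugation systems share. Its promoter peak, at chr2R:18624932-18625387 and -116 bp, had a signal of 341 (rank 1613), and 119, 82.5 and 139 in replicates 1, 2 and 4 (ranks 1508, 2261 and 1635). Atg3, the enzyme that transfers Atg8 to lipid, had one of the weaker peaks, at chr3L:18748215-18748670, with a signal of 180.2 (rank 4069) at -244 bp. It had no region within 100 bp in replicate 1, and signals of 62.2 (rank 3844) and 63.7 (rank 4461) in replicates 2 and 4. Atg4b, a protease that processes Atg8, had the strongest peak of the step, at chr3R:15357084-15357225 and -225 bp, with a signal of 560.2 (rank 684). Its signal was 159, 122 and 276 (ranks 904, 1060 and 513), so every replicate placed it far above the end of the strongest regions. The replicate summits lay at -134, -234 and -126 bp, and those of replicates 1 and 4 were near the 100 bp limit of a match.

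The peak inside Atg5 was the only one in that gene. Atg5 forms the complex with Atg12 and Atg16 that helps attach Atg8 to the membrane. The peak at chrX:7319030-7319485 had a signal of 315 (rank 1821) in an intron 4512 bp into the gene, and 97.3, 90.1 and 127 in the replicates (ranks 2062, 1895 and 1859). All replicates ranked it alike, and Atg5 itself lies inside an intron of CG1677, so the peak lies in introns of both genes. Its promoter region stayed under the optimal list (130.4, rank 6126). Atg16 had a weaker promoter region (78.1, rank 11727). Atg12 had none in the pooled list, and Atg10, the enzyme that attaches Atg12 to Atg5, had no region in promoter or body in any list.

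In the Atg4 and Atg18 families a promoter peak stood at 1 of the 2 genes, and in the Atg8 family at neither. Atg4b had its peak, whereas Atg4a, the other protease, had no promoter region in any list. Atg18a had its peak, whereas Atg18b had a pooled promoter region of 82.4 (rank 10924) and was among the strongest of replicate 2 only (69.6, rank 3111). Atg8a, the main fly Atg8, lay just outside the optimal list (145, rank 5369). Its best promoter regions had signals of 35.3, 49.8 and 67.7 in replicates 1, 2 and 4 (ranks 8359, 5622 and 4185). Their distances from the nearest of 3 start sites were 95, -130 and -124 bp, and -102 bp in the pooled list. Atg8b had no region in promoter or body in any list. No source used here says how reads that fit several places were treated, and its part in these differences between related genes was not tested.

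Among the 9 lysosomal genes, 2 had a promoter peak, a share near the 20.6% of all coding genes. The gene car encodes the Vps33A subunit of the HOPS tether, which joins autophagosomes and endosomes to the lysosome. Its peak at chrX:19565755-19566210 had a signal of 317 (rank 1804) at -36 bp, with 132 in replicate 1 (rank 1257) and 148 in replicate 4 (rank 1503). In replicate 2 no region lay within 100 bp of that summit, and the best promoter region, at 68 bp, had a signal of 49.2 (rank 5760). CtsL1, which encodes the protease cathepsin L, had 2 weak promoter peaks. The one at chr2R:13960413-13960868 had a signal of 195 (rank 3684) at -34 bp, and 68.7, 59.3 and 19.6 in the replicates (ranks 3443, 4170 and 23335), so replicate 4 held it far down its list. The other, at chr2R:13960179-13960634 and -268 bp, had a signal of 166 (rank 4536) and a matching region in replicate 2 alone (46.6, rank 6318). That summit lay at -3 bp from the start of the neighbouring gene Rpn13.

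The remaining lysosomal genes and the receptor had none. Rab7, the GTPase of late endosomes, lay just outside the optimal list (144, rank 5379). Its best promoter regions had signals of 49.2 and 52.2 in replicates 1 and 2 (ranks 5367 and 5195), and replicate 4 had none. Their distances from the nearest of 3 start sites were -42 and 191 bp, and -34 bp in the pooled list. CtsB, which encodes cathepsin B, followed (124, rank 6531), and Lamp1, a lysosomal membrane protein, was weak (46.4, rank 23610). The aspartic protease gene cathD, the HOPS genes dor and lt, and Mitf had no promoter region in the pooled list. Mitf is the fly member of the MiT/TFE factors that activate lysosomal genes. It had a region of signal 75.8 (rank 2663) in replicate 2 alone, and its nearest optimal summit lay 171551 bp from its start. The cargo receptor ref(2)P was also without a promoter peak (75.1, rank 12320). In all, 12 of the 21 genes without a promoter peak had a weaker pooled promoter region and 9 had none.

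**Figure D2:**
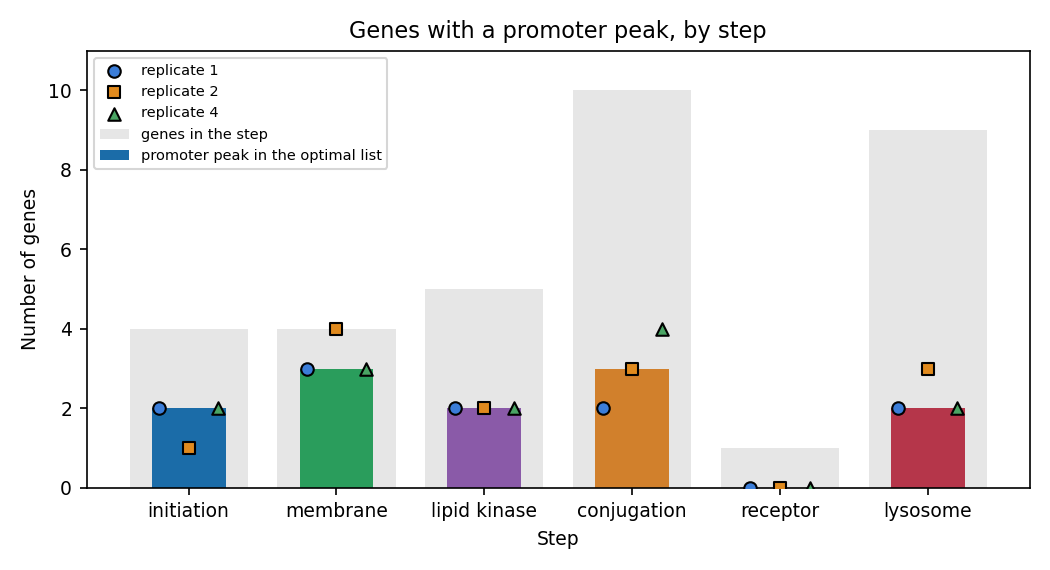
Number of genes with a promoter peak by step: grey bars give the genes in the step, coloured bars those with a promoter peak in the optimal list, and points those with a promoter region among the strongest 5208 of replicates 1, 2 and 4. Membrane growth has 3 of 4, initiation 2 of 4 and the lipid kinase step 2 of 5. Conjugation has 3 of 10, the receptor 0 of 1 and the lysosome 2 of 9.

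The counts by step differed by at most 2 genes between replicates, as the plot of counts by step shows. The mean over the 3 replicates was 1.67 ± 0.577 of 4 genes for initiation (SD, n = 3). It was 3.33 ± 0.577 of 4 for membrane growth and 2 ± 0 of 5 for the lipid kinase step. It was 3 ± 1 of 10 for conjugation and 2.33 ± 0.577 of 9 for the lysosome. Peaks matched in every replicate numbered 1, 3, 1 and 2 in the autophagy steps in that order, and 0 in the lysosome. Beside these counts, 20.6% of all coding genes had a promoter peak and 12.5% had one matched in every replicate. The steps also differed in layout. Another coding gene started within 1000 bp of 2 of 4 initiation, 4 of 4 membrane growth and 3 of 5 lipid kinase genes. This held for 9 of 10 conjugation and 4 of 9 lysosomal genes. The steps hold few genes, so no difference between them, nor the part of layout in it, was tested.

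Most of these promoter peaks were shared with a neighbouring gene. For 10 of the 12 genes (83.3%, against 57.9% of all genes with a promoter peak) the summit also lay within 500 bp of the start of another coding gene, and Atg13 and Vps15 were the 2 without. In all 10 cases the neighbour ran the other way, so the 2 genes stood head to head. The partners were Xe7 for Atg17, CG12093 for Atg2, CG7747 for Atg9, ERR for Atg18a, Drep4 for Uvrag, Nufip for Atg3, Hibch for Atg4b, Sec6 for Atg7, Rpn13 for CtsL1 and Grip84 for car. ERR encodes the estrogen-related nuclear receptor, Sec6 an exocyst subunit, Rpn13 a proteasome receptor for ubiquitin and Grip84 a subunit of the gamma-tubulin ring complex. Of the 12 optimal summits with such a neighbour, 6 lay nearer the start of the autophagy or lysosome gene and 6 nearer that of the neighbour. The nearer start was not the same in every replicate. Replicates 1 and 4 placed the Atg4b summit nearer Atg4b, and replicate 1 placed the Atg9 summit (-142 bp) nearer CG7747. Replicate 2 placed the Atg17 summit (-158 bp) nearer Atg17, and replicate 1 placed the Atg7 summit (-97 bp) nearer Atg7. A summit shared by a head-to-head pair cannot be given to one of the 2 genes.

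**Figure D3:**
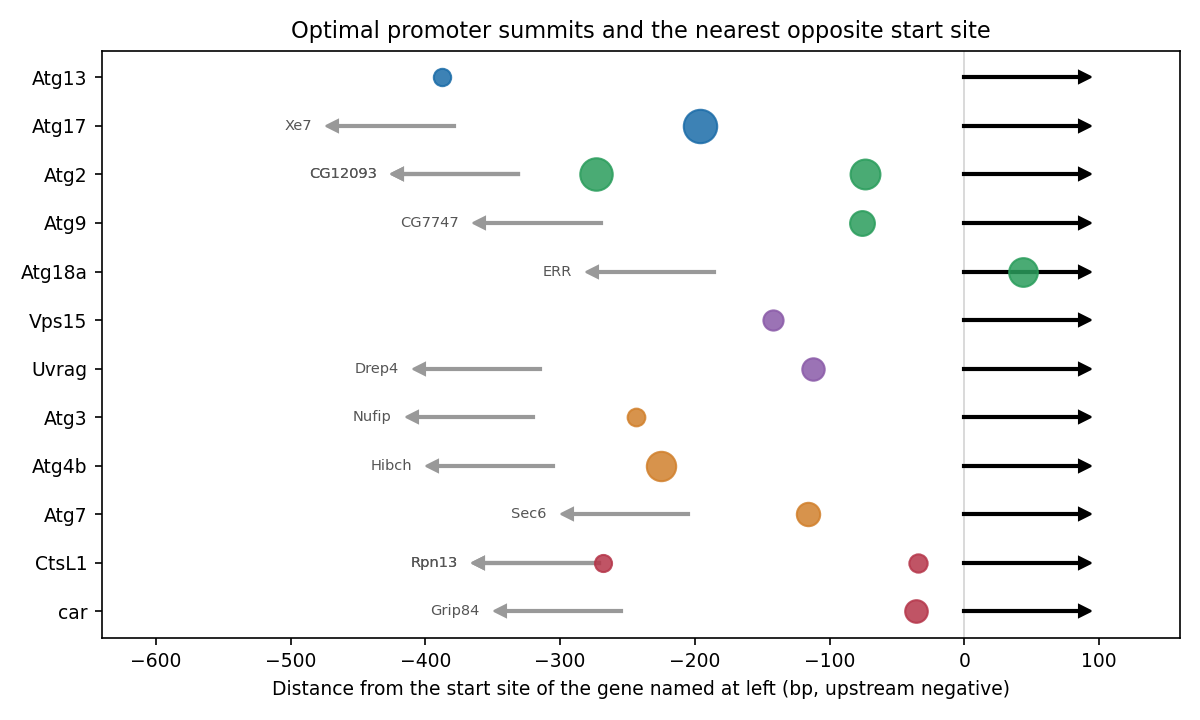
Promoter summits of the optimal list at the 12 genes, by distance from the gene's start site (horizontal axis, bp, upstream negative); larger circles have higher signal, black arrows are the named genes and grey arrows the neighbours of opposite direction within the range drawn. Of the 14 summits 13 lie upstream, between -388 bp at Atg13 and -34 bp at CtsL1, and the summit of Atg18a lies at 44 bp.

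Close neighbours were common among these genes. A start of another coding gene lay within 1000 bp for 22 of the 33 (66.7%, against 42.9% of all coding genes), and all 22 stood in head-to-head pairs (66.7%, against 36.2%). Of these 22, 11 had a promoter peak (50%, against 32.2% of all genes with such a neighbour). Of the 11 without such a neighbour only Atg13 had one (9.09%, against 11.8%). The share above that of all coding genes was therefore seen among the genes with a close neighbour, and that difference was not tested.

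Within the pairs, an optimal summit lay between the starts in 10 of 22 (28.2% of all 2667 such pairs). The pairs that shared a peak had gaps of 185 bp (Atg18a and ERR) to 378 bp (Atg17 and Xe7). That range was fixed by the pairs that shared a peak, so shares within it were not compared. The summit of Atg18a lay just outside its gap, and Vps15 shared a wider gap of 779 bp with CG8420, whose start was too far for the peak to count as shared. The pairs with no summit had gaps from 0 bp (Atg6 and Pisd) to 848 bp (Atg16 and Prtl99C). Among them, Atg12 and CG5645 (260 bp), Atg8a and BTBD9 (198 bp), and CtsB and amrt (288 bp) fell in the same range of gaps as the pairs with a shared peak.

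The strongest promoter summits, within 500 bp of a start by definition, lay much as those of all genes with a promoter peak. The summit was upstream of the start in 11 of 12 genes (91.7%, against 88.2% of all genes with a promoter peak). The median distance was -129 bp, and -142 bp over all such genes. The median signal was 329 and ranged from 172 to 736, against a median of 298 over all such genes. None of the 12 came near the highest promoter signal of the list, 4036.

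Peaks in the gene body outside the promoter were found in 4 genes (12.1%, against 8.4% of all coding genes): Atg1, Atg17, Atg5 and Atg7. The median length was 3461 bp for these 33 genes and 2166 bp for all coding genes, and its part in that count was not tested. All 6 body peaks were in introns. Atg17 had one 3085 bp into the gene, at chr3R:5672690-5672889, with a signal of 532 (rank 749) and 173, 222 and 113 in replicates 1, 2 and 4 (ranks 773, 323 and 2207). The body peak of Atg7, at chr2R:18621400-18621665, had the highest signal of the 6 (666, rank 496) and 210.1, 342 and 117 in the replicates (ranks 542, 106 and 2099). It lay 3512 bp into Atg7 but -9 bp from the start of CG5335, a gene nested in that intron, and is therefore also a promoter peak of CG5335. In both genes the body peak ranked highest in replicate 2, where the promoter peak of the same gene ranked lowest.

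**Figure D4:**
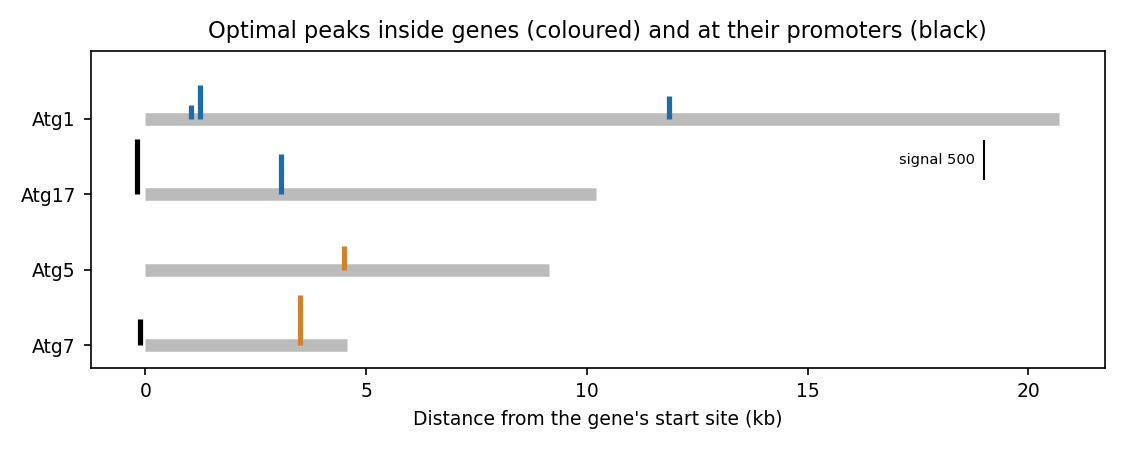
Optimal peaks in the 4 genes with a peak in the gene body, by distance from the start site (horizontal axis, kb): grey bars are the genes, coloured lines body peaks and black lines promoter peaks, with line height proportional to signal. Atg1 carries 3 body peaks and no promoter peak, and Atg7 has a higher signal inside the gene (666) than at its promoter (341).

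The order of the replicates was counted for both kinds of peak, with no test of a difference between them. Of the 10 promoter summits of these genes with a region within 100 bp in all 3 replicates, 8 were placed lowest in replicate 2, against 52.3% of all such promoter summits. Their median ranks were 944.5, 2033 and 1518 in replicates 1, 2 and 4. Atg2 gave 2 of the 10. Of the 5 body peaks outside any promoter, 3 of them in Atg1, 1 was lowest in replicate 2, against 44.7% of all such summits, with median ranks of 2062, 1895 and 1859. The ranks of whole lists are compared here because signal is on each list's own scale.

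The sequence under the summits was rich in A and T. GC content in the windows of 50 bases to each side of a summit was 31.3% ± 12.4 (SD over 14 summits), from 10.9% at Uvrag to 49.5% at CtsL1, and 35.6% ± 10.2 over the 2383 distinct promoter summits of all coding genes. The bZIP core site TGACG was in none of the 14 windows, and in 7.72% of all promoter summits and 11.0% of start sites. Its palindrome TGACGTCA (0.252% of promoter summits) and the AP-1 form TGAGTCA (1.01%) were also in none. The MiT/TFE E-box CACGTG (1.13%), the FOXO motif TGTTTAC (3.40%) and the core promoter motif GGTCACAC (2.18%) were absent from all 14 as well. All motifs were searched on both strands, TGACG is contained in TGACGTCA, and no match says only that these letters were not in the window. TATAAA was in 3 windows, those of Vps15, Uvrag and car, and in 20.9% of all promoter summits.

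TATCGATA, the DNA replication-related element of many fly housekeeping promoters, was in 1 window, at CtsL1 (3.19% of all promoter summits). In the whole spaces between the head-to-head starts it was in 4 of the 10 shared pairs, those of Atg17, Atg3, Atg7 and CtsL1, and in 18.9% of all 912 spaces of that range of length. Over all of those spaces the share was 19.3% with a summit and 18.6% without. TGACG was in 1 of the 10, that of Atg9, and in 20.8% of the 912, or 26.1% of those with a summit and 17.1% of those without. TATAAA was in 4 of the 10 and in 50% of the 912. With 10 spaces, no difference from all spaces was tested. The copies lay close to the starts, their midpoints at -58 bp for Atg17, -45 bp for Atg3, -13 bp for Atg7 and -58 bp for CtsL1. The element stood 138 bp from the summit at Atg17, 199 bp at Atg3 and 103 bp at Atg7. In those 3 genes it was thus outside the window at the summit, as the sequences of Atg17 and Atg3 printed above show.

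A further 36 genes of the pathway, from a list of 37 of which Vmp1 was not matched, had a promoter peak in 13 cases (36.1%, beside 36.4% of the 33 and 20.6% of all coding genes). It was 8 of 14 genes of autophagosome fusion (57.1%) and 4 of 8 of autophagosome formation (50%), and 1 of 14 of lysosomal content (7.14%), a hexosaminidase gene, Hexo2 (signal 419). Among fusion genes the peaks stood at Mon1 (723, shared with mRpS2) and Ccz1 (353), subunits of the exchange factor of Rab7. Others stood at Snap29 (425), Epg5 (265), Ykt6 (256) and Arl8 (213). The formation genes were led by bchs (781), with Sec16 (228) and Rubicon (224) below it. The bchs summit lay 450 bp downstream of the start, near the 500 bp limit. No region lay within 100 bp of the Sec16 and Epg5 summits in replicate 2, nor of the Arl8 summit in replicate 4. Hexo2 stood alone among the hydrolase and lysosomal membrane genes of that list, as CtsL1 did among the 3 cathepsin genes described above. Of the 36 genes, 7 had a peak matched in all 3 replicates, beside 12.5% of all coding genes. Of the 13 with a peak, 6 shared it with a neighbour, against 57.9% of all genes with a promoter peak. Among the 12 genes above, the share with a shared peak was 83.3%. Besides Mon1, the genes with a shared peak were Snap29 (with CG5554), Ykt6 (hdm), Arl8 (CG9667), Rab2 (Mob4) and Sec16 (CG1824).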

How the data were processed

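Per the labels, chromatin was sheared to 200 to 800 bp and precipitated with an anti-GFP antibody in 3 replicates of 1 group. The signal of a region is the authors' deposited value, comparable only within 1 list, and the deposited summit offset (bp) gives each summit. The deposited inventories say that the pooled list was made from all 3 alignments with 1 control. They say that the optimal list was made by irreproducible discovery rate from the pooled and replicate lists. Aligner, peak caller and the rate's threshold: not given in the sources used here. Depth and signal normalization are unknown, so no interval is given.

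Summits of the dm6 lists were placed on Ensembl release 115 genes. Sequence came from RefSeq Release 6. A promoter was 500 bp to either side of any start site, summits matched within 100 bp, neighbours were counted within 1000 bp, and the strongest 5208 regions of each replicate were used. Counting was tested on simulated summits. The genes, steps, motifs and further pathway genes were chosen with earlier results of these data known, so counts stand beside all coding genes, with no test. Every listed gene is named, and of the further genes at most 10 with values, by signal. Alternatives varied promoter width, start site, list length, match distance, motif window and each replicate left out, the last also for gene bodies and head-to-head pairs, chosen after seeing the data. Python 3.11.15, numpy 2.4.6, pandas 2.3.3 and matplotlib 3.10.9 were used. Expression, read coverage, untagged controls and the dm3 lists were not used here.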

Additional observations from a re-analysis of the deposited data

How the results depend on the processing

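Of 61 alternatives over 20 counts, 50 stayed within 1.5 times, that limit included. Among the 50 were counts of 0 under both settings, as for the receptor step and CACGTG, and a fall from 12 to 8 genes. The count of genes with a promoter peak was 12, and 24 with all pooled regions. Genes with a promoter region in all 3 replicates numbered 8, and 5, 13 and 18 with the strongest 2604, 10000 and all regions of each replicate. Peaks matched in all 3 numbered 7, and 4 within 50 bp. By step, initiation went from 2 to 1 with promoters of 250 bp and in the strongest 2604 peaks of the optimal list, where the lipid kinase and lysosome steps also went from 2 to 1. GGTCACAC and TGACG each went from 0 to 1 summit in windows of 100 bases to each side. The cause of these changes was not tested beyond the change in list or window itself. Those 2604 peaks left 8 genes, without Atg13, Atg3, CtsL1 and Vps15. Requiring the strongest regions of both other replicates left 8 to 11 genes with a promoter region, 9 without replicate 1, 11 without replicate 2 and 8 without replicate 4. Head-to-head pairs with a summit, an alternative chosen after seeing the data, were 10, and 7 to 15 under the same settings. No paired analysis was possible because there is 1 group. The depth is unknown, so how far it limits calls near the end of the optimal list was not tested.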
